A study of Chlamydomonas reinhardtii with 42 samples.

Results

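The genes described here are VIPP1 and 5 chaperone genes of Chlamydomonas reinhardtii, a unicellular green alga: HSP70B, CGE1a, CDJ2, CLPB3 and CPN10. They were chosen by symbol from the authors' rapamycin tables and matched by locus to the authors' count table, which holds 17114 genes. All 6 were found there and passed the filter on low values. Symbols come only from the rapamycin tables (780 genes), so each of the 6 had passed the authors' thresholds for rapamycin before anything else about it was read.

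RNA sequencing covered 2 strains, A31 and DHC16, grown in Tris-acetate medium and sampled 0, 12 and 48 h after vitamin B12 and thiamine were added. A31 was also treated with rapamycin, which inhibits the TOR kinase. Every vitamin group had 3 libraries except A31 at 48 h, which had 2. The authors deposited the count table under 2 names, for ClpP1 depletion and for TOR inhibition, with the same bytes, and 18 records labelled with rapamycin (9 of them DHC16) repeat the library names, strains and times of the vitamin records. The counts are read here as those of the vitamin libraries, by the first name, and no label settles this further. The authors' rapamycin levels at 0 h in A31 have other proportions than the A31 counts at 0 h. The mitochondrial chaperonin gene CPN60C and VIPP1 had 61.3 and 88.1 there, against mean counts of 32.7 and 2134 here. Why they differ was not tested. Per the labels, the vitamins serve to deplete ClpP1, a catalytic part of the Clp protease in the chloroplast, and no label names the strain in which this happens. From the study, DHC16 (also spelled DCH16 in the growth notes) is known as the strain whose chloroplast clpP1 gene is shut off by the vitamins, and A31 as its control. Both strains received the vitamins, and no culture without vitamins stood beside them at 12 or 48 h. A change with time therefore cannot be told apart from growth or from the hour of sampling. Whether replicates came from separate cultures is not stated. The p-values set differences of group means against the spread of libraries within groups, pooled over all groups, and that spread can be technical. The growth notes name light, dim light and darkness without tying them to samples.

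In the chloroplast, proteins are imported unfolded, folded by chaperones and removed by proteases of the Clp, FtsH and Deg families. HSP70B is the main HSP70 of the algal chloroplast stroma. J-domain proteins such as CDJ2 hand it its clients, and the exchange factor CGE1 resets it by releasing its nucleotide. VIPP1, a membrane-remodelling protein needed to build and maintain thylakoids, is the client that CDJ2 brings to HSP70B, and its rod-like assemblies are put together and taken apart with the help of this chaperone machine. CLPB3 belongs to the ClpB disaggregases, which pull proteins out of aggregates together with HSP70. CPN10 is a small chaperonin lid. The authors' annotation calls CPN10 very likely mitochondrial and CLPB3 probably chloroplastic or mitochondrial, so the name of chloroplast chaperone goes against the annotation of CPN10 and is not certain for CLPB3. CGE1a names a splice form, whereas the table counts reads per gene.

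The libraries held 7458423 to 13699705 reads, and the 6 genes had 19 to 13165 reads each in a library, with CDJ2 the lowest at 19 to 100. Values are normalized counts, reads divided by 1 factor per library. Changes are log2 differences of normalized count + 1, with the standard error (SE) of the limma fit over all 17 libraries and p-values adjusted over 14422 tested genes by the Benjamini-Hochberg method; a gene is said to rise or fall where the adjusted p is under 0.05. The 2 A31 libraries at 48 h, numbered 19 and 22, stand apart from each other. Ranked over all genes, library 19 correlated at 0.943 on average with A31 at 0 h and at 0.813 with A31 at 12 h; for library 22 these values were 0.775 and 0.919. Some results that use A31 at 48 h are therefore also given without library 19 or library 22, and the others rest on both. METE, the B12-independent methionine synthase whose transcript is repressed by the vitamin, fell at 12 h in A31 (log2 change -2.39 ± 0.30, adjusted p = 5.92e-06) and in DHC16 (-1.63 ± 0.30, adjusted p = 0.000213). At 48 h METE was still lower than at 0 h in DHC16 (-1.35 ± 0.30, adjusted p = 0.0012; -0.30 and not passing when scaled to equal totals). In A31 at 48 h its change was -0.41 ± 0.33 (adjusted p = 0.376), with 1001 normalized counts in library 19, inside the A31 0 h range of 579 to 1050, and 353 in library 22 (-1.16, adjusted p = 0.0024, without library 19).

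**Figure D1:**
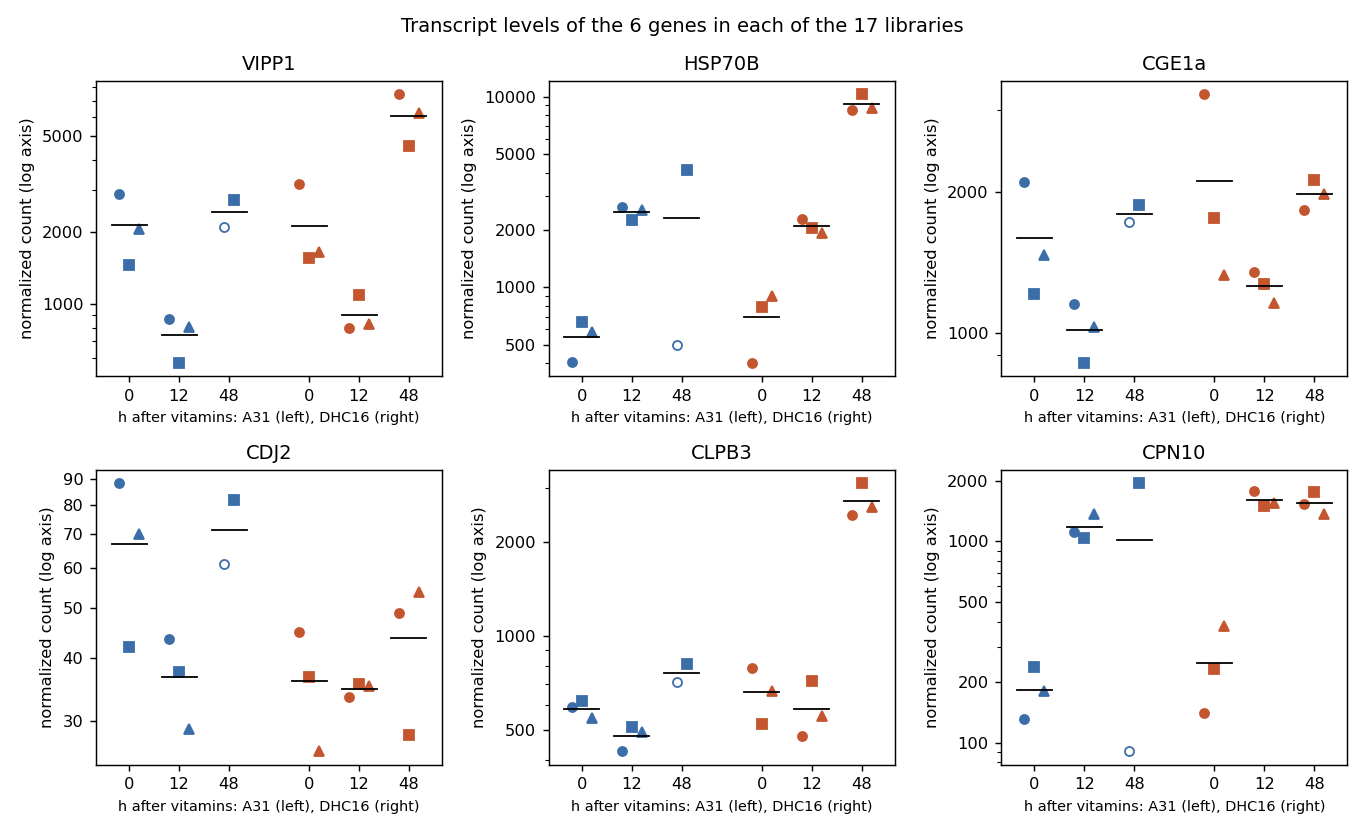
Normalized counts (log axis) of the 6 genes in each of the 17 libraries, by hours after the vitamins, A31 in blue and DHC16 in red; circles, squares and triangles are the libraries of a group in order of their numbers, the open circle is A31 library 19 and the bars are group means. HSP70B, CLPB3 and VIPP1 are highest in DHC16 at 48 h, and HSP70B and CPN10 lie far apart in the A31 libraries at 48 h (496 and 4104, 90.9 and 1946).

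VIPP1 (Cre13.g583550) fell by 12 h in both strains and stood above its starting level in DHC16 at 48 h. At 0 h its normalized counts were 2890.5, 1463 and 2048 in A31 and 3159, 1559 and 1645 in DHC16. At 12 h they were 866, 572 and 805 in A31 and 799.8, 1090.3 and 824 in DHC16. Each 12 h library thus lay below every 0 h library of its strain. The log2 change was -1.48 ± 0.29 (SE; adjusted p = 0.000363) in A31 and -1.16 ± 0.29 (adjusted p = 0.00251) in DHC16. Scaled to equal read totals, the DHC16 value was -0.41 (adjusted p = 0.16) and no longer passed. At 48 h the DHC16 libraries reached 7472, 4542 and 6238, all above the 0 h libraries, whereas A31 had 2105 and 2728, within its 0 h range. The mean of DHC16 at 48 h was 2.87 times that at 0 h (log2 change 1.57 ± 0.29, adjusted p = 0.000245) and 6.72 times that at 12 h (2.73 ± 0.29, adjusted p = 9.38e-07). In A31, VIPP1 rose from 12 h to 48 h by 1.70 ± 0.32 (adjusted p = 0.00169), and its value against 0 h was 0.22 ± 0.32 (adjusted p = 0.64).

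HSP70B (Cre06.g250100), the stromal HSP70, rose by 12 h in both strains and rose again in DHC16. Its normalized counts at 0 h were 406, 653 and 583 in A31 and 402, 791 and 898 in DHC16. By 12 h they had reached 2627, 2245 and 2549 in A31 and 2283, 2037 and 1935 in DHC16, with no overlap with 0 h in either strain. The means were 4.52 and 2.99 times those at 0 h (log2 changes 2.20 ± 0.49 in A31, adjusted p = 0.00108, and 1.66 ± 0.49 in DHC16, adjusted p = 0.00839). Without DHC16 library 1 at 0 h, the lowest of its group, the DHC16 value was 1.3 (adjusted p = 0.0511). At 48 h DHC16 had 8549.9, 10279.6 and 8738, which made HSP70B the member with the largest rise over 0 h among the 6. That rise was 3.79 ± 0.49 (adjusted p = 7.83e-06), 13.2 times in the means, of which 2.14 ± 0.49 (adjusted p = 0.00178) came after 12 h. In A31 at 48 h library 19 had 496, a 0 h level, and library 22 had 4104, above all 12 h libraries. The shared spread holds this gap, which widens the SE of the HSP70B comparisons. A limma fit without both libraries, chosen after seeing the data, gave adjusted p = 1.54e-07 for the A31 rise by 12 h. The A31 change from 0 h to 48 h was 1.41 ± 0.55 (adjusted p = 0.0649) with both, 2.93 (adjusted p = 1.03e-06) without library 19 and -0.11 without library 22.

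CGE1a (Cre07.g341600), the exchange factor of HSP70B, was lower at 12 h, where HSP70B was higher, and near its 0 h level at 48 h. Its normalized counts were 2105, 1215 and 1469 at 0 h and 1155, 867 and 1032 at 12 h in A31. In DHC16 they were 3232, 1762 and 1334 at 0 h and 1352, 1275 and 1159.6 at 12 h, with an overlap between the groups. CGE1a fell by 12 h by -0.62 ± 0.25 (adjusted p = 0.044) in A31 and by -0.64 ± 0.25 (adjusted p = 0.0399) in DHC16, the latter turning to 0.11 when scaled to equal totals. Scaled to equal totals, the A31 value was -0.29 and did not pass. The A31 call was lost without library 1 (-0.40), 7 (-0.66), 13 (-0.51) or 16 (-0.63). The DHC16 call was lost without library 1 (-0.28), 10 (-0.69), 13 (-0.65) or 16 (-0.58). At 48 h the values were 1725 and 1876 in A31 and 1835, 2121 and 1979 in DHC16, each inside the 0 h range of its own strain. The change of CGE1a from 0 h to 48 h was 0.01 ± 0.25 in DHC16 (adjusted p = 0.985), with a 95% interval of -0.53 to 0.54, and 0.21 ± 0.28 in A31 (adjusted p = 0.614). From 12 h to 48 h it rose in DHC16 by 0.65 ± 0.25 (adjusted p = 0.0442), a call lost when any 1 of the 6 libraries was left out (0.59 to 0.70). In A31 the same step was 0.83 ± 0.28 (adjusted p = 0.0392) and was lost without library 13 (0.72), 16 (0.85), 19 (0.89) or 22 (0.77) and with equal totals (0.27).

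CDJ2 (Cre07.g316050), the J-domain protein that brings VIPP1 to HSP70B, had the lowest counts of the 6 genes. Its normalized counts in A31 were 88.4, 42.0 and 70.3 at 0 h, 43.6, 37.4 and 28.9 at 12 h and 61.1 and 81.9 at 48 h. In DHC16 they were 44.9, 36.7 and 26.1, then 33.4, 35.4 and 35.1, then 49.0, 28.1 and 53.9. The DHC16 groups overlapped at all times, with a spread as wide as the differences. CDJ2 fell in A31 by 12 h (-0.81 ± 0.31, adjusted p = 0.0323), which no longer passed without library 1 (-0.58), 7 (-0.74), 13 (-0.83) or 16 (-0.65), or with equal totals (-0.48). It rose in A31 from 12 h to 48 h (0.95 ± 0.34, adjusted p = 0.0498), and that call was lost without library 10 (1.08), 13 (0.98), 16 (0.80), 19 (1.16) or 22 (0.74), and with equal totals (0.41). In DHC16 its change was -0.02 ± 0.31 at 12 h (0.71 when scaled to equal totals, which passed as a rise, adjusted p = 0.0396) and 0.26 ± 0.31 at 48 h against 0 h (95% interval -0.39 to 0.91). At these counts, any change within that interval remained possible.

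CLPB3 (Cre02.g090850), the disaggregase, had no called change at 12 h in the deposited scale and had risen by 48 h in DHC16. At 0 h its normalized counts were 592, 616 and 543 in A31 and 788, 523 and 666 in DHC16. At 12 h they were 426, 510.1 and 493 in A31 and 477, 717 and 552 in DHC16, below all 0 h libraries in A31 and overlapping with them in DHC16. The 12 h change was -0.30 ± 0.18 (adjusted p = 0.161) in A31, where quantile scaling gave -0.45 and passed (adjusted p = 0.0365). Scaled to equal totals, the A31 change turned to 0.04 (adjusted p = 0.897), and the A31 libraries at 0 h and 12 h then overlapped. In DHC16 the 12 h change was -0.18 ± 0.18 (adjusted p = 0.407), where scaling to equal totals gave 0.57, which passed as a rise (adjusted p = 0.0256). At 48 h all 3 DHC16 libraries stood at 2449, 3099.9 and 2599, above every other library of the series, while A31 had 712 and 813. The DHC16 mean was 4.12 times that at 0 h (log2 change 2.05 ± 0.18, adjusted p = 1.14e-07) and 4.67 times that at 12 h (2.23 ± 0.18, adjusted p = 4.54e-08). In A31, CLPB3 rose from 12 h to 48 h by 0.68 ± 0.20 (adjusted p = 0.0198), a call lost without library 10 (0.60) or library 22 (0.58) and with equal totals (0.12). Its A31 change from 0 h to 48 h was 0.38 ± 0.20 (adjusted p = 0.16). The A31 libraries at 48 h lay close together for CLPB3, in contrast to HSP70B.

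CPN10 (Cre03.g178450), the chaperonin lid, rose by 12 h in both strains to a level that DHC16 still had at 48 h. Its normalized counts at 0 h were 132, 237 and 181 in A31 and 141, 232 and 379 in DHC16. At 12 h they were 1116, 1043 and 1369.9 in A31 and 1781, 1496 and 1549 in DHC16, far above all 0 h libraries. The means were 6.41 and 6.43 times those at 0 h (log2 changes 2.70 ± 0.67 in A31, adjusted p = 0.00256, and 2.79 ± 0.67 in DHC16, adjusted p = 0.00212). DHC16 at 48 h had 1528, 1759 and 1375, a change from 12 h of -0.05 ± 0.67 (adjusted p = 0.957) with a 95% interval of -1.48 to 1.37. Against 0 h, CPN10 was higher in DHC16 at 48 h by 2.74 ± 0.67 (adjusted p = 0.00265). Library 19 of A31 at 48 h had 90.9, below all other libraries, and library 22 had 1946, above all others. This gap enters the shared spread and widens the SE and intervals of CPN10, also between DHC16 groups. A limma fit without both libraries, chosen after seeing the data, gave adjusted p = 5.84e-08 for the A31 rise by 12 h. The A31 change of CPN10 from 0 h to 48 h was 1.24 ± 0.75 (adjusted p = 0.231) with both, 3.44 (adjusted p = 7.36e-07) without library 19 and -0.97 without library 22.

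**Figure D2:**
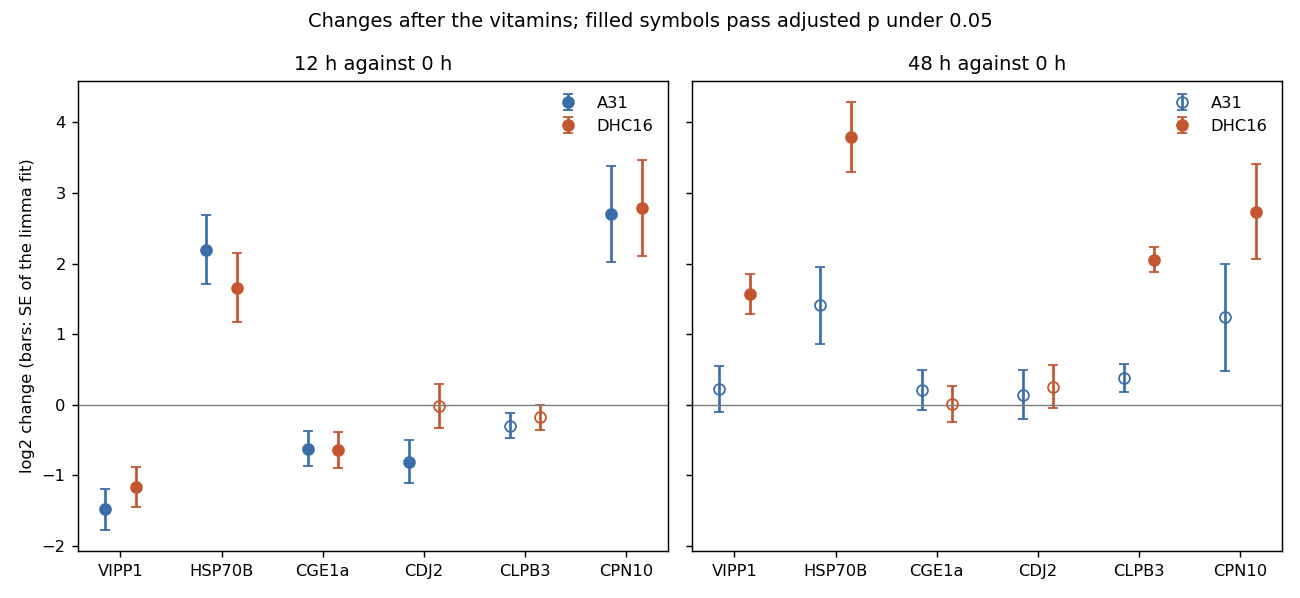
Log2 changes of the 6 genes against 0 h at 12 h (left) and 48 h (right), A31 in blue and DHC16 in red, with the SE of the limma fit; filled symbols have an adjusted p under 0.05. At 12 h the strains lie close together, and at 48 h HSP70B (3.79), CPN10 (2.74), CLPB3 (2.05) and VIPP1 (1.57) are filled in DHC16 and no gene is in A31.

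At 12 h HSP70B and CPN10 had risen and VIPP1 and CGE1a had fallen in both strains, with CGE1a in DHC16 turning to 0.11 when scaled to equal totals. In A31, 2 of the 6 rose and 3 fell. Among all genes tested in A31, 31.5% rose and 28.4% fell (4537 and 4097 genes, or 5741 and 2502 when scaled to equal totals). In DHC16, 2 of the 6 rose and 2 fell, against 30.1% and 26.4% of all genes (4340 and 3813, or 7941 and 1274 when scaled to equal totals). With equal totals the DHC16 calls became 4 rises and 0 falls: HSP70B and CPN10 as before, CLPB3 (0.57) and CDJ2 (0.71). Most genes tested changed by 12 h in either strain, and nothing particular to the 6 genes is read from these counts. The difference between the strains in the 12 h change passed for 0 of the 6 genes by limma, edgeR and DESeq2, and 0 had an unadjusted p under 0.05. It passed for 0.25% of all genes (22 higher and 14 lower in DHC16, or 321 and 14 when scaled to equal totals). The intervals of these differences were wide, from -0.54 to 1.18 for VIPP1 and from -2.0 to 0.92 for HSP70B, so unequal changes within them remained possible.

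At 48 h more of the 6 genes had risen over 0 h in DHC16 than in A31. The 2 A31 libraries disagreed on HSP70B and CPN10. In DHC16, HSP70B, CPN10, CLPB3 and VIPP1 had risen over 0 h, 4 of the 6, against 29.7% of all genes (4290 higher and 3643 lower, or 9471 and 775 when scaled to equal totals). The 6 genes had passed the rapamycin thresholds and were chosen with earlier results known. Nothing particular to them is therefore read from the counts at 48 h. Between 12 h and 48 h in DHC16, VIPP1, CLPB3, HSP70B and CGE1a rose, 4 of the 6, against 23.2% of all genes (3343 higher and 3554 lower, or 4513 and 2275 when scaled to equal totals). VIPP1 and CPN10 therefore reached their 48 h levels along opposite paths, VIPP1 after a trough at 12 h and CPN10 by a rise before 12 h. The CGE1a call between 12 h and 48 h in DHC16 was lost when any 1 of the 6 libraries was left out. In A31 at 48 h against 0 h, 0 of the 6 passed by limma, 1 had an unadjusted p under 0.05 (HSP70B), and edgeR and DESeq2 each called 2 (HSP70B and CPN10). The missing limma calls of HSP70B and CPN10 rest on A31 library 19 (496 and 90.9), since library 22 had 4104 and 1946. Of all genes, 27% passed there (2071 higher and 1821 lower, or 1130 and 2768 when scaled to equal totals). Between 12 h and 48 h in A31, VIPP1, CLPB3, CGE1a and CDJ2 rose, 4 of the 6, against 12.2% of all genes (1766 higher and 2118 lower, or 558 and 5961 when scaled to equal totals). The A31 calls of CLPB3, CGE1a and CDJ2 were each lost in some of the fits that left out 1 library. With equal totals VIPP1 was the 1 gene of the 6 that still rose there (1.14, adjusted p = 0.0038), and CPN10 fell (-2.02, adjusted p = 0.0418); in the deposited scale CPN10 had -1.47 with both A31 libraries at 48 h and 0.74 without library 19. With only the A31 libraries at 12 h and 48 h in the fit, limma called 0 of all 14422 genes (3559 had an unadjusted p under 0.05), so the 0 of 6 in that fit says nothing about these genes.

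Compared directly, the strains showed no called difference in the 6 genes at 0 h or at 12 h. At 0 h 0 of 6 passed by limma, edgeR and DESeq2, and 1 had an unadjusted p under 0.05. This was CDJ2, with a limma value of -0.85 ± 0.31 (adjusted p = 0.0935). CDJ2 passed there without A31 library 4 (-1.15, adjusted p = 0.0426). Of all genes, 9.38% differed at 0 h (681 higher and 672 lower in DHC16, or 122 and 7321 when scaled to equal totals). At 12 h 0 of 6 passed by limma, edgeR and DESeq2 and 0 had an unadjusted p under 0.05, against 3.45% of all genes (246 higher and 252 lower, or 138 and 917 when scaled to equal totals). With only the 12 h libraries in the fit, CPN10 passed with a difference of 0.46 (adjusted p = 0.0301).

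At 48 h CLPB3, HSP70B and VIPP1 were higher in DHC16 than in A31, 3 of the 6, against 16% of all genes that were higher (2311 higher and 2234 lower, or 5459 and 1037 when scaled to equal totals). For these 3 genes every DHC16 library lay above both A31 libraries. This is a description, because the share of all genes separated in this way was not counted. The count of 3 of the 6 is also a description, because the genes were chosen with earlier results known. The difference was 1.83 ± 0.20 for CLPB3 (adjusted p = 3.07e-06). For VIPP1 it was 1.31 ± 0.32 (adjusted p = 0.00498). HSP70B differed by 2.68 ± 0.55 (adjusted p = 0.00128), by 1.16 (adjusted p = 0.00866) without A31 library 19 and by 4.20 (adjusted p = 2.13e-08) without A31 library 22. With only the 48 h libraries in the fit, HSP70B had an adjusted p of 0.0693. CPN10 differed by 1.87 ± 0.75 (adjusted p = 0.0689), a value that passed without library 22 (4.07, adjusted p = 1.44e-07), and its groups overlapped. CGE1a differed by 0.13 ± 0.28 (95% interval -0.46 to 0.73). CDJ2 had -0.74 ± 0.34 (adjusted p = 0.114), with every DHC16 library below both A31 libraries in the deposited scale. Per 1000000 reads these groups overlapped, with 4.43 to 7.24 in DHC16 and 5.69 and 8.29 in A31.

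The test of the difference between the strains in the change from 0 h to 48 h asks which genes responded unequally. It passed for CLPB3, HSP70B and VIPP1, 3 of the 6, against 9.26% of all genes that passed in this direction (1335 higher and 1249 lower, or 9151 and 430 when scaled to equal totals). Since the 6 genes were chosen with earlier results known, this count is given as a description. CLPB3 changed by 1.67 ± 0.27 more in DHC16 (adjusted p = 0.000342), 1.58 without library 19 of A31 and 1.77 without library 22, and it passed in all of the fits that left out 1 library. HSP70B changed by 2.39 ± 0.73 more (adjusted p = 0.0319), which became 0.86 (adjusted p = 0.118) without A31 library 19 and 3.91 without library 22. VIPP1 changed by 1.35 ± 0.43 more (adjusted p = 0.0391). Its call was lost without library 1 (1.10), 7 (1.35) or 19 (1.16) of A31, or without library 4 (1.16), 7 (1.20), 19 (1.18) or 25 (1.31) of DHC16. HSP70B was also lost without library 4 (2.24) or 7 (2.33) of A31, or without library 1 (2.03), 19 (2.43), 22 (2.30) or 25 (2.42) of DHC16. With edgeR and DESeq2 the HSP70B value was 1.70 (adjusted p = 0.107) and 1.65 (adjusted p = 0.0748), and with only the 4 groups compared the adjusted p of HSP70B was 0.096 and that of VIPP1 was 0.0881. CPN10 had 1.5 ± 1.01 (adjusted p = 0.346), which passed without library 22 of A31 (3.70) and was -0.70 without library 19. CGE1a had -0.20 ± 0.38, with a 95% interval of -1.01 to 0.60 (1.06 when scaled to equal totals), and CDJ2 had 0.11 ± 0.46, with an interval of -0.86 to 1.09.

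The deposited totals differed between the groups: those of the DHC16 libraries at 0 h (11875128 to 16502090) exceeded those of all other libraries (6350337 to 10739093). Scaling the recovered reads to equal totals moved the median log2 change of all genes from 0.04 to 0.78 at 12 h in DHC16, from 0.06 to 1.07 at 48 h in DHC16 and from 0.05 to 1.28 in the strain difference of the 48 h change. In A31 it moved from 0.02 to 0.35 at 12 h, from 0.03 to -0.19 at 48 h and from -0.09 to -0.64 between 12 h and 48 h. Between the strains it moved from -0.01 to -0.71 at 0 h, from -0.03 to -0.33 at 12 h and from 0.01 to 0.55 at 48 h. Taken relative to the median of all genes, the members gave nearly the same values either way. This had to be so, because the scaling shifts every gene of a library alike, and it tests nothing. VIPP1 at 48 h in DHC16 was 1.51 above the median as deposited and 1.54 with equal totals. HSP70B was 3.73 and 3.76 above it, and CLPB3 1.99 and 2.02. CGE1a at 12 h in DHC16 was -0.68 and -0.66 from the median. Without that reference, equal totals added calls beside those already given for 12 h in DHC16 and for A31 between 12 h and 48 h: CGE1a (1.05, adjusted p = 0.000316) and CDJ2 (1.27, adjusted p = 0.000794) rose in DHC16 by 48 h, and VIPP1 (-0.75), CLPB3 (-0.56) and CDJ2 (-1.54) were lower in DHC16 at 0 h. At 48 h CGE1a (0.68) and CPN10 (2.42) were then also higher in DHC16 than in A31. In the strain difference of the 48 h change, all 6 then passed.

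**Figure D3:**
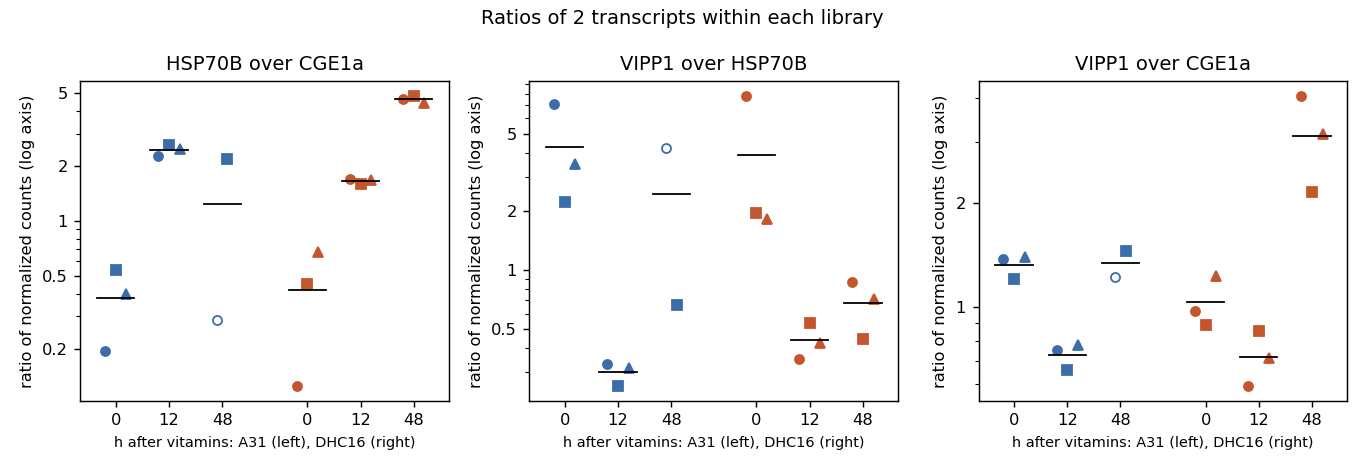
Ratios of the normalized counts of 2 genes within each library (log axis), by hours after the vitamins, with the symbols as in the plot of levels. HSP70B over CGE1a lies between 0.124 and 0.673 at 0 h and between 4.42 and 4.85 in DHC16 at 48 h, and library 19 of A31 at 48 h (open circle, 0.288) lies in the 0 h range.

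Ratios of 2 genes within a library do not depend on the factor of that library, although their absolute size holds the lengths of both transcripts and only their shifts can be read. HSP70B over its exchange factor CGE1a was 0.193 to 0.538 in A31 and 0.124 to 0.673 in DHC16 at 0 h. At 12 h the ratio was 2.27 to 2.59 in A31 and 1.60 to 1.69 in DHC16, so that the strains did not overlap. At 48 h it was 4.42 to 4.85 in DHC16, and 0.288 and 2.19 in the A31 libraries. The transcripts of chaperone and exchange factor thus did not keep a fixed proportion. The ratio of VIPP1 to CGE1a was 0.885 to 1.39 over all 0 h libraries, 0.591 to 0.855 over all 12 h libraries and 2.14 to 4.07 in DHC16 at 48 h. In A31 at 48 h it was 1.22 and 1.45. The ratio of VIPP1 to HSP70B, client to chaperone, was 1.83 to 7.85 at 0 h, 0.255 to 0.535 at 12 h and 0.442 to 0.874 in DHC16 at 48 h. HSP70B therefore gained on VIPP1 by 12 h in both strains, and the DHC16 range at 48 h overlapped with that of DHC16 at 12 h (lowest value 0.35, highest 0.535). CLPB3 over CGE1a was 1.31 to 1.46 in DHC16 at 48 h and 0.244 to 0.588 in all other libraries.

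Few other chaperones carry a symbol in the files. Symbols come only from the authors' rapamycin tables, so the genes named below had all passed the rapamycin thresholds. Other genes of the lists may be in the count table without a symbol. The genes named are therefore no even sample of chaperones, and their counts beside all genes are descriptions. Of 23 symbols listed for other plastid chaperones, 2 are present, HSP22E and HSP22F, small heat shock proteins of the chloroplast whose shared reads the counting could have split. Both rose in DHC16 by 48 h, by 6.98 ± 0.23 (adjusted p = 2.28e-12) and 7.43 ± 0.32 (adjusted p = 6.06e-11), with a median of 7.20 against 0.06 for all genes. Both also rose in DHC16 by 12 h (median 1.25, all genes 0.04) and in A31 by 48 h (0.89, all genes 0.03). HSP22E and HSP22F were already higher in DHC16 than in A31 at 0 h (median 1.31, all genes -0.01) and 12 h (2.84, all genes -0.03). Of 24 symbols for cytosolic, endoplasmic reticulum and mitochondrial chaperones, 5 are present: CPN60C, HSP70C, HSP70E, HSP70G and HSP22A. By 12 h 3 of them rose in each strain, against 31.5% and 30.1% of all genes, with medians of 2.55 in A31 and 2.23 in DHC16 (all genes 0.02 and 0.04). CPN60C, the mitochondrial chaperonin, rose by 5.07 ± 1.11 in A31 (adjusted p = 0.000974) and by 4.54 ± 1.11 in DHC16 (adjusted p = 0.00236). HSP70C, the mitochondrial HSP70, rose by 4.10 ± 0.89 (adjusted p = 0.000856) and 3.92 ± 0.89 (adjusted p = 0.00128). HSP70E was the third to rise, by 2.55 ± 0.80 (adjusted p = 0.0114) in A31 and 2.23 ± 0.80 (adjusted p = 0.0245) in DHC16, the latter lost without library 1 (1.70), 10 (2.22), 13 (2.26) or 16 (2.22). At 48 h all 5 had risen over 0 h in DHC16, against 29.7% of all genes, with a median of 3.75 (all genes 0.06), though HSP70E (2.33 ± 0.80, adjusted p = 0.0203) was lost without library 1 (1.8) or 22 (2.32). HSP22A had only 2 to 3 reads in the DHC16 libraries at 0 h, and its 48 h counts lay far apart (89.2, 1744 and 110). In A31 at 48 h 1 of the 5 rose by limma, with a median of 1.64 (all genes 0.03). This was HSP22A (3.41 ± 1.13, adjusted p = 0.0346), lost without library 1 (3.03) or 7 (3.03), and with quantile scaling (2.36) or edgeR (adjusted p = 0.0688). Its value was 1.76 without library 22. HSP22A had 0, 5 and 0 reads in A31 at 0 h and 6 and 61 at 48 h, so its value lies near the floor. CPN60C had 1.67 ± 1.25 there (adjusted p = 0.333), 5.46 (adjusted p = 4.63e-08) without library 19 and -2.12 (adjusted p = 0.0071) without library 22, while edgeR called CPN60C (adjusted p = 0.00326) and HSP70C (adjusted p = 0.00625). The strain difference of the 48 h change passed for 1 of the 5, HSP70G (1.07, adjusted p = 0.0308), which was 0.57 (adjusted p = 0.129) without A31 library 19 and was also lost without library 1 (1.01) or 7 (0.97) of A31, or without library 4 (0.99) or 22 (0.99) of DHC16. Of 24 symbols for plastid import and thylakoid insertion, SECA1 and FTSY are present. SECA1, the motor of the thylakoid Sec pathway, fell by 12 h in A31 (-1.17 ± 0.17, adjusted p = 2.86e-05) and DHC16 (-0.83 ± 0.17, adjusted p = 0.000652; -0.07 with equal totals, where it did not pass), as VIPP1 did. FTSY, the receptor of the signal recognition particle, had -0.40 ± 0.19 in both strains at 12 h and did not pass (adjusted p = 0.0757 and 0.0803); the DHC16 value was 0.35 with equal totals.

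The named genes most like each member over the 17 libraries were taken by Pearson r on log2(normalized count + 1) among 760 named genes, as a description; the libraries share treatment times and strains, so a high r needs no more than that. CPN10 was closest to TIM22B (0.984), CPN60C (0.984) and HSP70C (0.979), all placed in mitochondria by the authors' annotation. CPN60C, the partner of CPN10 in a chaperonin, had 6.27 and 1393 in the A31 libraries 19 and 22 at 48 h, the same split that CPN10 showed. HSP70B was closest to PRD1 (0.969), PRX6 (0.966) and FSD1 (0.963), and CLPB3 to PWR1 (0.982), DEG1C (0.976) and MSC1 (0.972). CGE1a was closest to ASSD1 (0.847), SHMT1 (0.834) and CGL66 (0.821), and CDJ2 to GSD1 (0.797), KCN4 (0.722) and GTR12 (0.720), weaker likeness than for the other members.

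VIPP1 was most like DGD1 (0.965), annotated by the authors as a galactosyltransferase of galactolipids, the main lipids of thylakoids, and then like MOB1 (0.937) and CEP1 (0.933). DGD1 (Cre13.g583600) lies next to VIPP1 in the RefSeq annotation of the assembly Chlamydomonas_reinhardtii_v5.5, and the 2 gene models do not overlap there. Whether the authors' counting used strand or the same gene models is not given in the sources used here. The normalized counts of DGD1 were 1308 to 1689 at 0 h, 924 to 1302 at 12 h, 1514 and 1853 in A31 at 48 h and 2529 to 2828 in DHC16 at 48 h. DGD1 rose in DHC16 by 48 h against 0 h (0.85 ± 0.15, adjusted p = 0.000203). It fell in A31 by 12 h (-0.45 ± 0.15, adjusted p = 0.0176; -0.40 without library 1 and -0.35 without library 13, where it did not pass, and -0.12 with equal totals). In DHC16 at 12 h DGD1 had -0.36 ± 0.15 (adjusted p = 0.0554), which turned to 0.40 with equal totals. In the deposited values the group means of both genes were lowest at 12 h and highest at 48 h in each strain.

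For rapamycin, given to A31, only the authors' mean levels, fold changes and adjusted p-values are at hand, with no value per library and no stated scale. The authors' deposited table lists 1939 genes at 2 h (890 higher) and 1702 at 8 h (688 higher), each with a log2 fold change over 1 in size and an adjusted p of at most 0.0099 at 2 h and 0.0097 at 8 h. Of the 6 genes it lists 5 at 2 h and 4 at 8 h, all higher than at 0 h. Since the symbols came from this table, their presence there is how they were chosen and not a result. VIPP1 had the largest fold change of the 6 in the authors' deposited table, from a mean level of 88.1 at 0 h to 407 at 2 h (log2 fold change 2.32, adjusted p = 2.3e-21) and 455 at 8 h (2.26, adjusted p = 1.7e-21). It stood 74th of the 1939 genes at 2 h and 85th of the 1702 at 8 h, from the highest fold change down. CGE1a and CDJ2, the co-chaperones, are listed in the authors' deposited table at 2 h only. CGE1a went from 67.2 to 177 (1.52, adjusted p = 6.2e-10) and CDJ2 from 6.58 to 20.7 (1.37, adjusted p = 7.7e-08). HSP70B is listed in the authors' deposited table at 8 h only, from 116 to 275 (1.13, adjusted p = 2.3e-06). CLPB3 went from 13 to 25.1 at 2 h (1.06, adjusted p = 3.4e-05) and 47.2 at 8 h (1.65, adjusted p = 2.5e-10) in the authors' deposited table. CPN10 went there from 44.2 to 91.8 (1.11, adjusted p = 4.3e-05) and 116 (1.22, adjusted p = 6.5e-07). A gene missing at one time did not meet the criteria of the list then, and whether its level differed between 2 h and 8 h was not tested.

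**Figure D4:**
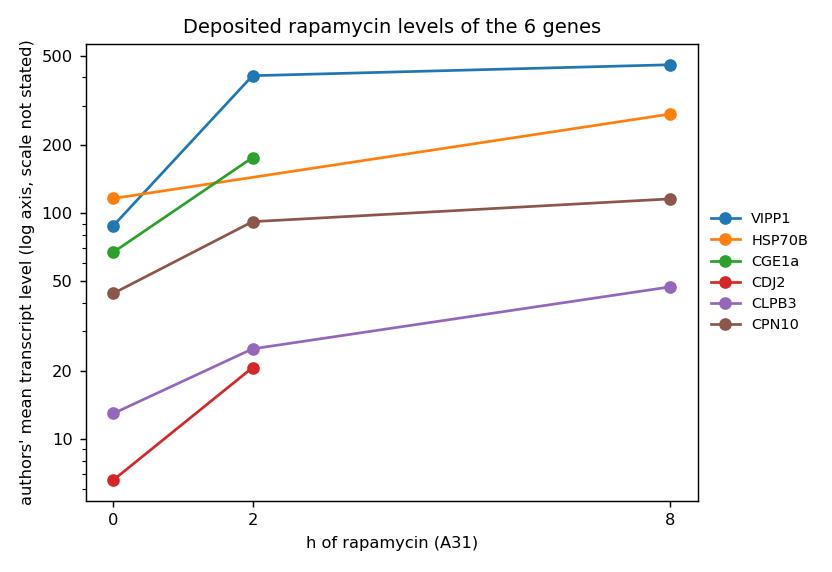
Mean transcript levels of the 6 genes in A31 at 0, 2 and 8 h of rapamycin, from the authors' deposited table (log axis, scale not stated, no error given); lines join the times at which a gene is listed. VIPP1 goes from 88.1 to 407 and 455, and CGE1a and CDJ2 are listed at 2 h only.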

How the data were processed

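The count table that the authors deposited holds a signal, normalized counts: whole reads scaled by a single factor for each library. With this scaling undone, 100% of values came out whole within a tolerance of 0.01, and each read was worth 0.703 to 2.04. The submitters' processing notes name edgeR 3.0.8, HTSeq 0.5.3p9, TopHat 1.3.1 and CASAVA 1.8.2 without roles; no build, annotation or strand setting is given in the sources used here. For rapamycin the authors deposited mean levels (a signal of unstated scale), moderated log2 fold changes and p-values, with the test not stated. The series has 42 records, 18 of them with vitamins and 24 with rapamycin; 1 A31 library at 48 h and all rapamycin libraries were not analysed here. The count table was deposited under 2 names with the same bytes and used once, as the vitamin table.

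Tested were the 14422 genes averaging 1 or more per 1000000 reads, with limma 3.58.1 (trend, R 4.3.3) on log2(normalized count + 1), fitting each strain at each time as a group, with a spread common to the 17 libraries and Benjamini-Hochberg adjustment at 0.05; the scale understates changes of low genes. Alternatives were scaling to equal totals and to equal quantiles, edgeR 4.0.16 and DESeq2 1.42.0 on the recovered reads, pseudocounts of 0.5 and 8, other filters, fewer groups, a replicate block and leaving out each library. The scripts were tested on simulated data. The 6 genes, the lists and the tests were chosen with earlier results of these data known. All 6 genes are described; from the lists, genes with the largest changes are named, up to 4, and the 3 named genes most alike by Pearson r. Sequences are not given.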

Additional observations from a re-analysis of the deposited data

Results flagged for a closer look

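The change from 0 h to 48 h differed between DHC16 and A31, by the test of the difference itself (limma, adjusted over all genes), for 3 of the 6 genes: HSP70B by 2.39 log2 (adjusted p = 0.0319), CLPB3 by 1.67 (adjusted p = 0.000342) and VIPP1 by 1.35 (adjusted p = 0.0391), each more positive in DHC16. The HSP70B value was 0.86 without A31 library 19, while that of CLPB3 was 1.58 and that of VIPP1 1.16 (adjusted p = 0.0775). The part of library 19 in these values was given as measured, and its cause was not tested.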

How the results depend on the processing

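Of the alternatives that left out no library, 596 values kept direction and side of the threshold, 18 no longer passed, 16 newly passed, 5 reversed (changed sign, with a call before or after) and 20 changed sign with a call in neither; of those that left out 1 library, 357 were kept, 44 no longer passed, 7 newly passed and 36 changed sign with a call in neither. All 5 reversals came from scaling to equal totals: CGE1a (0.11), CDJ2 (0.71) and CLPB3 (0.57) at 12 h in DHC16, CLPB3 between strains at 0 h (-0.56) and CGE1a in the strain difference of the 48 h change (1.06). Sign changes with no call included HSP70B (0.30 to -0.42), CGE1a (0.34 to -0.38) and CPN10 (0.37 to -0.34) between strains at 0 h, also with equal totals. This scaling called 6 of the 6 genes, not 3, in that difference, 3, not 5, at 12 h in A31, 2 (VIPP1 higher and CPN10 lower), not 4 rises, from 12 h to 48 h in A31, 4 rises, not 2 rises and 2 falls, at 12 h in DHC16, 3, not 0, between strains at 0 h, and 5, not 3, between strains at 48 h. With only the groups compared in the fit (fewer libraries), the counts were 1 for the 48 h change difference, 0 from 12 h to 48 h in A31 and 1 between strains at 12 h. edgeR and DESeq2 gave 2 in A31 at 48 h against 0 h.

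With 1 library left out, the number of the 6 genes called ranged from 1 to 4 for the 48 h change difference, 3 to 5 at 12 h and 0 to 2 at 48 h in A31, 2 to 3 from 12 h to 48 h in A31, 2 to 4 at 12 h in DHC16, 3 from 12 h to 48 h in DHC16, 4 at 48 h in DHC16, 0 to 1 between strains at 0 h, and 3 to 4 at 48 h. For strains at 12 h and the 12 h change difference it was 0. Leaving out an A31 library at 48 h leaves 1, assumed to vary like the other groups.

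Counts over all genes moved by more than 1.5 times as follows. The 12 h change difference (36) had 183 by DESeq2, 335 with equal totals, 502 with only the groups compared and 430 without the A31 48 h group, the last chosen after seeing the data. The 48 h change difference (2584) had 9581 with equal totals and 1671 with only the groups compared, which also gave 297 for A31 at 48 h against 0 h (3892), 0 for A31 from 12 h to 48 h (3884), 2488 between strains at 12 h (498) and 1631 at 48 h (4545). With equal totals, A31 from 12 h to 48 h had 6519, strains at 0 h (1353) 7443 and strains at 12 h 1055, which DESeq2 put at 1008. Strains at 0 h had 769 with quantile scaling, and strains at 0 h and 12 h had 2570 and 1435 without the A31 48 h group. The filter of 10 per 1000000 reads, with fewer genes tested, gave 5507 for A31 (8634) and 5185 for DHC16 (8153) at 12 h, and 4549 for DHC16 from 12 h to 48 h (6897).

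Libraries of the strains share numbers, and what a number stands for is not given. Same-numbered libraries deviated together at 0 h (correlations 0.222, 0.211 and 0.151) and for number 10 (0.178), but not for the other 4 numbers (-0.0844 to 0.0565), so the numbers were not taken to pair the libraries. The replicate block, with the number as a term, left the counts of the 6 genes at 0, 0 and 3 between strains at 0, 12 and 48 h, and at 0 and 3 for the 12 h and 48 h change differences; over all genes the 12 h change difference went from 36 to 11. No paired analysis was possible for changes with time because the times of a strain share no numbers. CDJ2, with 19 to 100 reads, is the gene most limited by depth.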

Other observations

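Library 1 at 0 h stood out in both strains in the same way. Its VIPP1 and CGE1a counts were the highest of the 0 h group (2890.5 and 2105 in A31, 3159 and 3232 in DHC16), and its HSP70B and CPN10 counts the lowest (406 and 132 in A31, 402 and 141 in DHC16). The ratio of VIPP1 to HSP70B was 7.12 and 7.85 in these libraries, against 1.83 to 3.51 in the other 0 h libraries. The labels do not say what the shared number stands for.

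The A31 libraries at 48 h disagreed gene by gene. HSP70B was 496 in library 19 and 4104 in library 22, and CPN10 was 90.9 and 1946. For VIPP1 (2105 and 2728), CGE1a (1725 and 1876), CLPB3 (712 and 813) and CDJ2 (61.1 and 81.9) they were close.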
